A study of Mus musculus with 6 samples.

Results

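Lipid droplet proteins and the regulators of the droplet lipase were followed across the livers of both mouse groups. The set held 10 genes of the 55487 genes listed in each file, picked by gene family with earlier results of these data known, by a rule that uses no measured value: Fitm1, Fitm2, Plin2, Plin4, Plin5, Cidea, Cideb, Cidec, G0s2 and Pnpla2. Messenger RNA was sequenced after poly(A) selection from 20 mg of frozen liver per animal. The WT group was 3 male mice of the inbred substrain BALB_cJ, and the SCADD group was 3 male mice of BALB_cBYJ, whose inherited defect is a lack of short-chain acyl-CoA dehydrogenase, which oxidises butyryl-CoA in mitochondria. Mice of both groups were 8 weeks old and ate standard chow. Substrain and enzyme defect coincide in every animal, so their effects cannot be told apart.

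A lipid droplet is a store of triglyceride and sterol ester wrapped in a single layer of phospholipid, and in liver it buffers the flow of fatty acids between uptake, export and oxidation. FIT proteins of the endoplasmic reticulum help new droplets form, perilipins coat them, and CIDE proteins sit where droplets touch and move lipid from one to the other. Adipose triglyceride lipase, the product of Pnpla2, takes the first fatty acid off stored triglyceride, and the small protein G0S2 binds and blocks it. Several of these genes, among them Plin2, Plin4, Plin5, Cidec, G0s2 and Fitm1, are textbook targets of the fatty acid sensing nuclear receptors PPAR-alpha or PPAR-gamma.

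Reads counted in genes ranged from 23991104 to 27148756 in the WT libraries and from 16948986 to 23912744 in the SCADD libraries. Unmapped reads made up 13.6% to 16.4% of the WT and 25.1% to 36.6% of the SCADD libraries, without overlap, and were most frequent in SCADD replicate 3, the library with the fewest gene reads. Their part in the results below was not tested. Acads, the gene of the deficient enzyme, was at 166 to 196 CPM in WT and 96.96 to 104 CPM in SCADD (CPM, counts scaled to library size), and the groups did not overlap. Alb, the albumin gene that marks hepatocytes, was at 30131 to 65314 TPM (transcript abundance scaled for length and library size) in the 6 livers. Values given as a series below follow replicates 1, 2 and 3 of each group. The labels do not say whether the 3 mice of a group shared a litter or cage, so the p-values measure the spread between these animals.

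Of the 10 genes, 9 had enough reads to be tested, and Cidea did not. In SCADD livers 4 rose (Fitm1, Fitm2, Plin4 and G0s2) and 0 fell, by edgeR's quasi-likelihood test with Benjamini-Hochberg adjustment over 13498 genes. Among all tested genes 4.22% rose and 2.8% fell, against 4 and 0 of these 9. The CPM values of 5 of the 9 (these 4 and Pnpla2) were higher in all SCADD livers than in all WT livers, as they were for 14.9% of all tested genes. The median log2 fold change was 0.90 over the 9 genes and -0.00078 over all tested genes. None of the 9 had a negative estimate by edgeR, DESeq2 or limma-voom, so none was lower at an unadjusted p under 0.05, and both other tools called the same 4 genes higher. DESeq2 called 5.52% of all genes higher and 4.04% lower, and limma-voom 4.13% and 2.7%. On log2(TPM + 1), limma called 3 of them higher (Fitm1, Plin4 and G0s2), against 0.794% of all genes higher and 0.626% lower, and Fitm2 had an adjusted p of 0.147. Given how the set was picked, these counts describe the genes and are no test of the set. Within the perilipins of the set the log2 fold changes ran from 0.14 to 2.10 and within the CIDE genes from 0.16 to 1.45. The plot of levels by library shows the values behind them. Plin3, a tested perilipin outside the set, had a log2 fold change of -0.14 (SE 0.14, edgeR p after adjustment 0.603). Leaving out SCADD replicate 2, SCADD replicate 3 or WT replicate 2 left 3 genes that rose. Those fits called 915, 1590 and 395 of all genes in both directions together, against 947 with all 6 libraries.

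**Figure D1:**
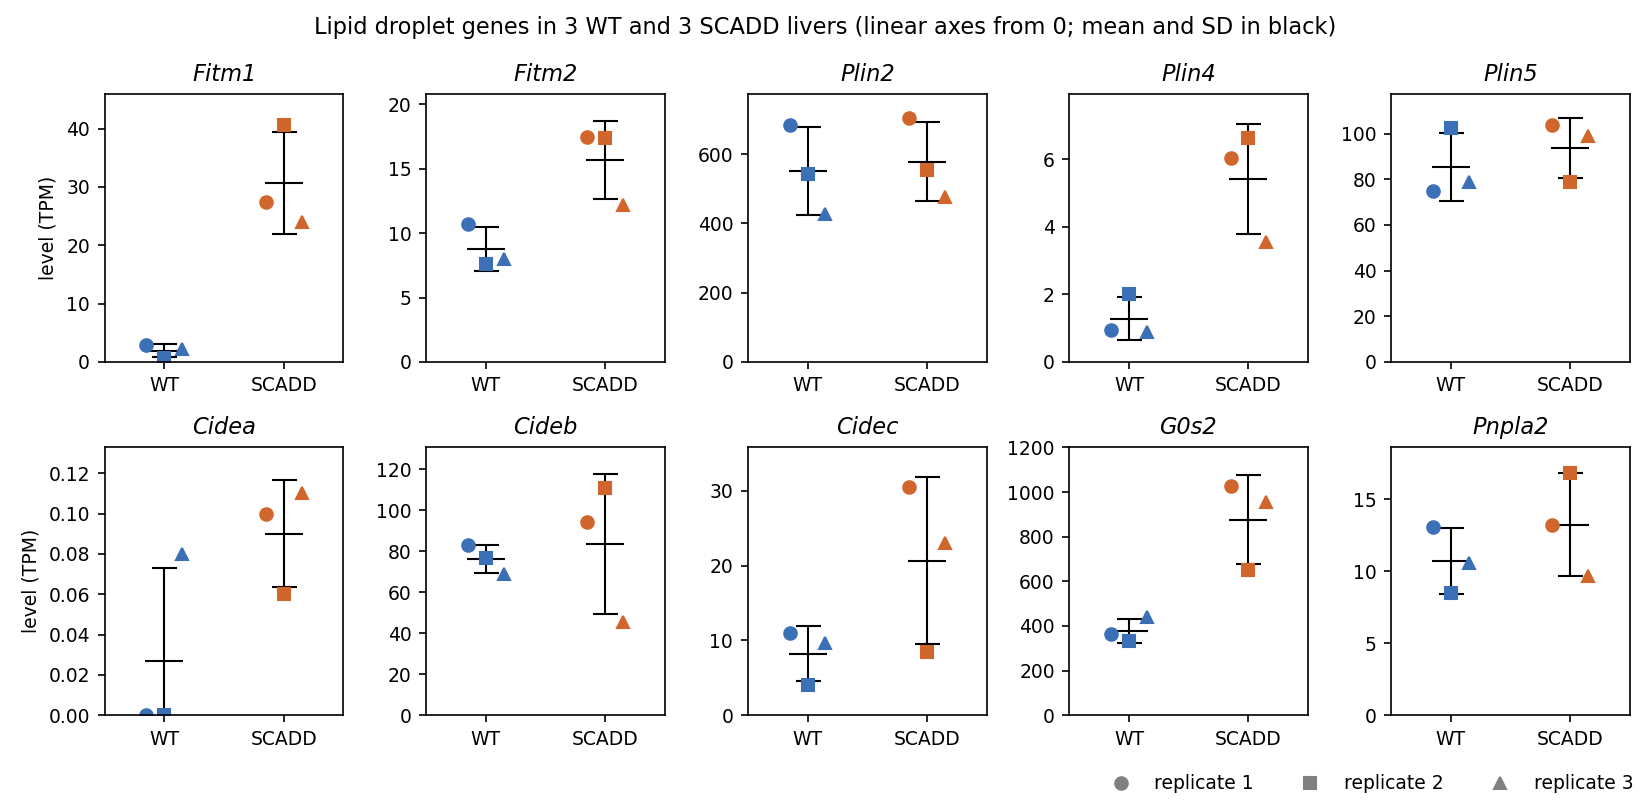
Level of each of the 10 genes in TPM (vertical axes, linear from 0) in 3 WT (blue) and 3 SCADD (orange) livers, with the marker shape giving the replicate and the black bars the mean and SD. For Fitm1, Fitm2, Plin4 and G0s2 every SCADD point lies above every WT point, while for Plin2, Plin5 and Cideb the points of the groups mix.

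To show the regulatory sequence next to the 4 rising genes and 2 that did not pass the test, the 250 bases before the RefSeq transcription start are given below, 5′ to 3′ on the strand of the gene, on build GRCm38.p6. Plin2 and Plin5 are included because their windows hold AGGTCA, the core site bound by nuclear receptors, read on either strand, and this match is in capitals (TGACCT where it lies on the other strand). RefSeq windows were matched by symbol for 9 of the 10 genes. Fitm1 lies at chr14:55575424-55575673 on the plus strand, and the others on the minus strand: Fitm2 at chr2:163472630-163472879, Plin4 at chr17:56109783-56110032, G0s2 at chr1:193273189-193273438, Plin2 at chr4:86670060-86670309 and Plin5, for the upstream one of its 2 listed starts, at chr17:56117549-56117798.
Fitm1: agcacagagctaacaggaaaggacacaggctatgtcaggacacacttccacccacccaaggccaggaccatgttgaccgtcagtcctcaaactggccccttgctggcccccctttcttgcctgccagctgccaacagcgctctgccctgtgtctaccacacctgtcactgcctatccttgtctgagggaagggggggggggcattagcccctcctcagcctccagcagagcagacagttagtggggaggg
Fitm2: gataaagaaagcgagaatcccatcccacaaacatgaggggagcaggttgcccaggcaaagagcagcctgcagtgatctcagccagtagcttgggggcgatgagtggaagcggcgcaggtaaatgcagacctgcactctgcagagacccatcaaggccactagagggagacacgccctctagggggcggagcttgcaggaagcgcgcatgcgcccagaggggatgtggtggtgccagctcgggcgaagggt
Plin4: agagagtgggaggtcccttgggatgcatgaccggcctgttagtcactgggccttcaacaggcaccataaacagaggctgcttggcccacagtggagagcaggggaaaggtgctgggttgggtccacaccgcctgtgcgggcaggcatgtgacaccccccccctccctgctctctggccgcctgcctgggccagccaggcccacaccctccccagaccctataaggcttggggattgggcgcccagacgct
G0s2: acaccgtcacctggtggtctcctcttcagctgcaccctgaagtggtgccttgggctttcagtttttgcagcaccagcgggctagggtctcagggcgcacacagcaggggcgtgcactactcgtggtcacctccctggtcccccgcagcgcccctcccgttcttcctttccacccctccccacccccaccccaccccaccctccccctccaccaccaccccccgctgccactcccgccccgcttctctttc
Plin2: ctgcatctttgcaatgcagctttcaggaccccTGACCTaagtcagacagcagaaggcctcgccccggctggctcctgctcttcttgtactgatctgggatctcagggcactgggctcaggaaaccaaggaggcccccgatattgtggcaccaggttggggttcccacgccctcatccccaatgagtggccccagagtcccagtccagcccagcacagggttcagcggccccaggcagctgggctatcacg
Plin5: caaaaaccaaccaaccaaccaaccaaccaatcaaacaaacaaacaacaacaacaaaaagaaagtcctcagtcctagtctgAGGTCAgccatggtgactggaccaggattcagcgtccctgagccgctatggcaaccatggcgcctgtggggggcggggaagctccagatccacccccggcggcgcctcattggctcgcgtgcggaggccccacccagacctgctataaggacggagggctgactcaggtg
Of 11 start windows of 300 bases read for these genes, 3 held AGGTCA: the window of Plin2 and both windows of Plin5, the more downstream start having its match 13 bases after the start. Over 32851 windows of this length in the table, 16.3% held it. The DR1 element, AGGTCA repeated after 1 free base and so always counted with the single site too, was searched on both strands and was in 0 of the 11 and in 0.0396% of all windows. None of the windows of the 4 rising genes held either. These matches describe the letters in these windows and do not speak to binding there or elsewhere.

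Fitm1, whose product binds triglyceride in the endoplasmic reticulum membrane and is best known from muscle, showed the largest change of the set. The gene lies on chromosome 14 (ENSMUSG00000022215, 55575617 to 55576954, GRCm38, 1 annotated transcript of 971 bases). Its reads numbered 61, 14 and 50 in the WT livers against 565, 671 and 429 in the SCADD livers. In CPM these were 2.21, 0.612 and 1.88 in WT against 23.0, 31.7 and 26.6 in SCADD. The lowest SCADD liver was far above the highest WT liver, and WT replicate 2 was lowest of all. The fitted change was 17.0-fold (log2 fold change 4.08 ± 0.34 SE, edgeR p after adjustment 0.000268).

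Fitm2, the family member expressed in most tissues, rose by less. It lies on chromosome 2 (ENSMUSG00000048486, 163466379 to 163472629), with 38.5, 30.2 and 32.0 CPM in the WT livers against 65.3, 61.9 and 60.4 CPM in the SCADD livers. The groups were tight and did not overlap. The log2 fold change was 0.90 (± 0.13 SE, edgeR p after adjustment 0.00315), or 1.86-fold.

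The balance between the FIT genes turned over. Per transcript length, Fitm1 made up 20.99%, 8.40% and 21.7% of the summed Fitm TPM in the WT livers but 61.0%, 70.03% and 66.4% in the SCADD livers. Fitm2 was the more abundant of the pair in each WT liver and Fitm1 in each SCADD liver. Their summed level went from 10.7 ± 2.63 TPM in WT (SD, n = 3) up to 46.4 ± 10.96 in SCADD (SD, n = 3). No test was made of these shares.

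Among the perilipins, Plin4 rose, while Plin2 and Plin5 did not pass the test. Plin4, which coats small nascent droplets and is most abundant in fat and muscle, lies on chromosome 17 (ENSMUSG00000002831, 56100591 to 56109803). It had 4.74, 11.7 and 5.11 CPM in the WT livers against 32.2, 33.5 and 26.0 CPM in the SCADD livers. WT replicate 2 stood above the other WT livers and still below each SCADD liver. The log2 fold change was 2.10 (± 0.33 SE, edgeR p after adjustment 0.0103), or 4.28-fold. The call was lost without SCADD replicate 2 (adjusted p = 0.0637) or SCADD replicate 3 (0.0607), with log2 fold changes of 2.02 and 2.21, and without WT replicate 2 the log2 fold change was 2.63.

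Plin5, which tethers droplets to mitochondria in tissues that burn fat, lies upstream of Plin4 on the same strand, with 1.8 kb between the end of Plin5 and the start of Plin4 (ENSMUSG00000011305, 56111601 to 56117596). It had 138, 209 and 165 CPM in the WT livers against 204, 148 and 261 CPM in the SCADD livers. The groups overlapped, with SCADD replicate 3 highest and WT replicate 1 lowest, and the log2 fold change was 0.26 (± 0.22 SE, edgeR p after adjustment 0.540). Whether Plin4 and Plin5 differ in their response was not tested.

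Plin2, the main droplet coat protein of hepatocytes, lies on chromosome 4 (ENSMUSG00000028494, 86648386 to 86670060). Its values were 1161, 994 and 814 CPM in the WT livers against 1226, 921 and 1115 CPM in the SCADD livers. The groups overlapped almost wholly, with a log2 fold change of 0.14 (± 0.19 SE, edgeR p after adjustment 0.728). With Plin1 and Plin3 counted in, Plin2 made up 82.1% to 88.3% of all perilipin TPM in WT and 80.9% to 85.4% in SCADD. The share of Plin4 was 0.123% to 0.306% in WT and 0.605% to 1.02% in SCADD. The perilipin sum, most of it Plin2, was 650 ± 127 TPM in WT livers (SD, n = 3) against 688 ± 122 in SCADD livers (SD, n = 3).

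The estimated mix of transcripts of each gene was described by a weighted length, without a test. RSEM, the authors' quantification tool, gives each gene a transcript length weighted by the estimated abundance of its transcripts. For Plin2 this length was 1852 to 1863 bases in WT and 1840 to 1847 bases in SCADD, without overlap. Among 10746 tested genes whose weighted length varied, 5.63% were shorter in SCADD in this way. For Plin4, Cidec, Cideb and Pnpla2 the ranges overlapped, and the others kept 1 length in all libraries. The Plin4 length, 6009 to 6247 bases, exceeded its transcripts in GENCODE M21 (5755 and 5756 bases), and 1 transcript of the authors' annotation was not in that release.

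In the CIDE family the estimate for Cidec was high but did not pass the test. Cidec, which drives the growth of large droplets, lies on chromosome 6 (ENSMUSG00000030278, 113424634 to 113435760). It had 13.7, 5.60 and 14.6 CPM in the WT livers against 39.8, 10.2 and 43.6 CPM in the SCADD livers. SCADD replicates 1 and 3 were above all WT livers, but SCADD replicate 2 lay within the WT range. The log2 fold change was 1.45 (± 0.63 SE, edgeR p after adjustment 0.248), or 2.74-fold, and without SCADD replicate 2 it was 1.87 with an adjusted p of 0.0567. The table of promoters lists 2 starts for this gene. Its weighted transcript length, 1416 to 1533 bases in WT and 1402 to 1519 bases in SCADD, gave no separation of the groups.

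Cideb, the CIDE gene of hepatocytes, which acts in the lipidation of very low density lipoprotein, lies on chromosome 14 (ENSMUSG00000022219, 55754050 to 55758458), 177 kb from Fitm1. It had 87.4, 87.6 and 81.6 CPM in the WT livers against 104, 114 and 68.2 CPM in the SCADD livers. SCADD replicate 3 was below each WT liver and the other SCADD livers above, and the log2 fold change was 0.16 (± 0.18 SE, edgeR p after adjustment 0.660). Cidea, a gene of brown fat on chromosome 18 (ENSMUSG00000024526), was close to absent. Only 0, 0 and 2 reads were counted in the WT livers against 2, 1 and 4 in the SCADD livers, which pooled to 0.0259 CPM (95% exact counting interval 0.00314 to 0.0936) and 0.113 CPM (0.0455 to 0.233). These intervals overlap and cover counting error only. Cideb supplied 87.7% to 94.98% of CIDE family TPM in WT, and 75.6%, 92.9% and 66.2% in the SCADD livers.

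Of the inhibitor and the lipase in the set, G0s2 rose and Pnpla2 did not pass the test. G0s2 lies on chromosome 1 (ENSMUSG00000009633, 193272161 to 193273217, 1 transcript of 871 bases). It had 251, 253 and 346 CPM in the WT livers against 758, 454 and 945 CPM in the SCADD livers. The groups did not overlap, with SCADD replicate 2 the nearest to WT. The log2 fold change was 1.34 (± 0.26 SE, edgeR p after adjustment 0.0120), or 2.54-fold. The call was lost without WT replicate 2, at a log2 fold change of 1.27 and an adjusted p of 0.0771.

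Pnpla2 lies on chromosome 7 (ENSMUSG00000025509, 141455198 to 141460743). It had 24.0, 16.3 and 21.5 CPM in the WT livers against 24.4, 28.3 and 24.9 CPM in the SCADD livers. The SCADD livers were above the WT livers by a narrow margin in CPM, a separation seen for 14.9% of tested genes in this direction, while the TPM values overlapped. The log2 fold change was 0.33 (± 0.16 SE, edgeR p after adjustment 0.248).

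Per length, G0s2 exceeded Pnpla2 in each liver. Their TPM stood in a ratio of 27.6, 39.0 and 41.4 in the WT livers against 77.8, 38.5 and 98.2 in the SCADD livers. In SCADD replicates 1 and 3 the ratio was above all WT livers, and in SCADD replicate 2 it was inside the WT range. The means were 36.0 ± 7.37 and 71.5 ± 30.3 (SD, n = 3 each). Cidec relative to Cideb showed the same arrangement of libraries, at 0.0528 to 0.140 in WT against 0.322, 0.0763 and 0.509 in the SCADD livers.

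**Figure D2:**
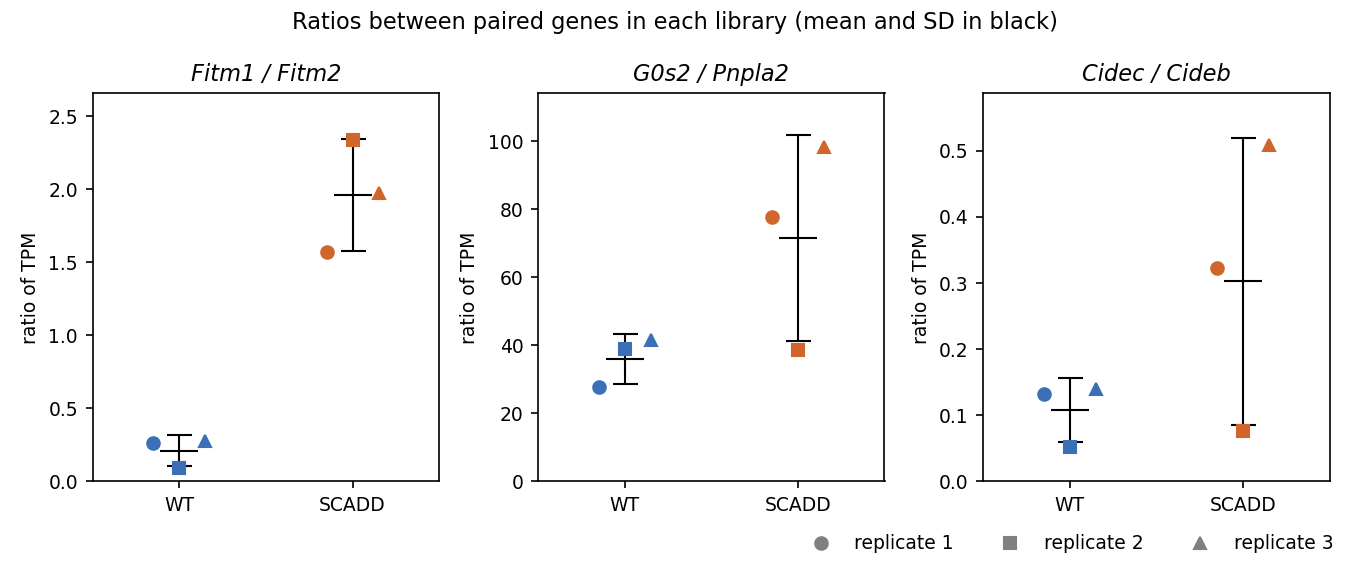
Ratio of TPM (vertical axes, linear from 0) between Fitm1 and Fitm2, G0s2 and Pnpla2, and Cidec and Cideb in each WT (blue) and SCADD (orange) liver, with the mean and SD in black. The Fitm ratio runs from 0.0917 to 0.277 in WT and from 1.57 to 2.34 in SCADD, whereas SCADD replicate 2 (square) falls among the WT livers in the other ratios.

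The order of the genes by TPM differed between the groups. In WT livers it ran Plin2, G0s2, Plin5, Cideb, Pnpla2, Fitm2, Cidec, Fitm1, Plin4 and Cidea, from 551 ± 128 TPM for Plin2 and 377 ± 54.9 for G0s2 to 1.92 ± 1.10 for Fitm1 and 1.28 ± 0.633 for Plin4 (SD, n = 3). In SCADD livers G0s2 came first, at 877 ± 200 TPM, before Plin2 at 578 ± 115, and Fitm1 came at 30.7 ± 8.75 TPM, between Cideb at 83.6 ± 34.2 and Cidec at 20.7 ± 11.2 (SD, n = 3). The ranges of neighbours overlapped in WT for Plin2 and G0s2, for Plin5 and Cideb, for Pnpla2, Fitm2 and Cidec in turn, and for Fitm1 and Plin4. In SCADD they overlapped for G0s2 and Plin2, for Plin5 and Cideb, and for Fitm1, Cidec, Fitm2 and Pnpla2 in turn. In both groups Plin2 and G0s2 were clear of the genes after them, as were Plin5 and Cideb.

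**Figure D3:**
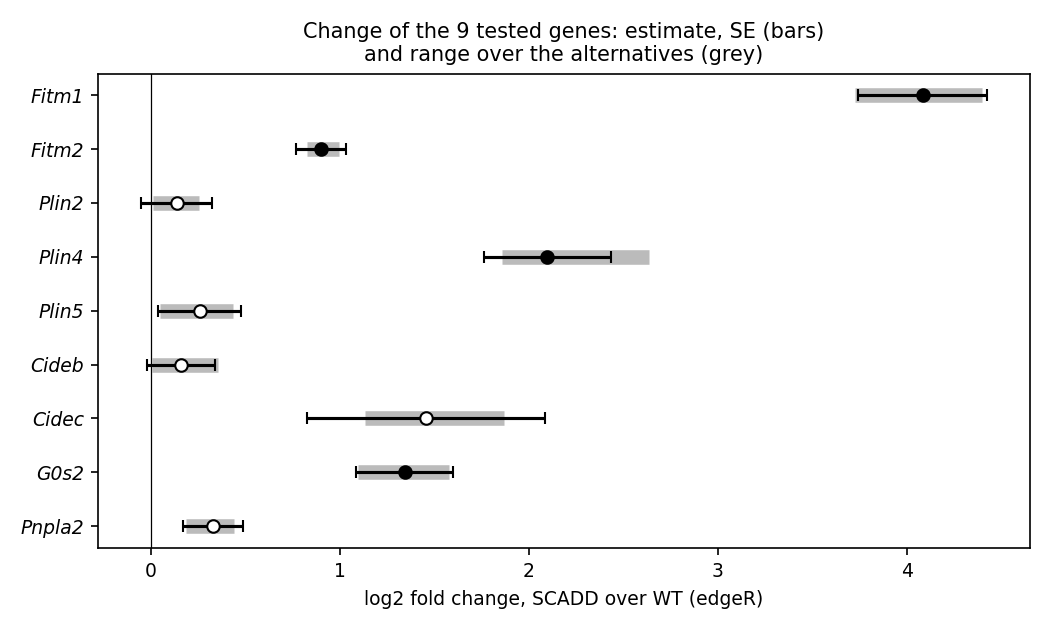
Log2 fold change of SCADD over WT (horizontal axis) for the 9 tested genes by edgeR, with SE as black bars, the range over 16 alternative settings as grey bars, and filled points for an adjusted p under 0.05. Fitm1 stands at 4.08 and Plin4 at 2.10, Cidec has the widest SE (0.63), and Plin2, Plin5, Cideb and Pnpla2 lie between 0.14 and 0.33.

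The wider set of droplet genes was divided into lists by role. Of 19 tested genes for droplet formation other than the FIT genes, 4 rose and 0 fell with edgeR. The edgeR shares over all tested genes were 4.22% higher and 2.8% lower. DESeq2 called 5 of the 19 higher and 0 lower, against 5.52% and 4.04% of all genes. At an unadjusted p under 0.05, 9 of them were higher and 2 lower, against 12.4% and 10.2% of all tested genes. Dgat2, which makes the triglyceride stored in droplets, went from 168, 181 and 208 CPM in the WT livers to 368, 440 and 421 CPM in the SCADD livers (log2 fold change 1.14 ± 0.15 SE, edgeR p after adjustment 0.00207). Lpin2, a phosphatidate phosphatase of the same pathway, rose by 1.14 (SE 0.20, adjusted p = 0.00734) in log2 units, and Mctp2, a reticulum protein of droplet formation sites, by 0.92 (SE 0.17, adjusted p = 0.00918). Spast, the microtubule-severing ATPase spastin that also localises to droplets, had 0.46 (SE 0.11, adjusted p = 0.0387) and lost its call without any library but SCADD replicate 3 (0.0658 to 0.153), with upper-quartile scaling (0.0591) or without a filter on low counts (0.0667). The median log2 fold change of the 19 genes was 0.30.

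No other coat or droplet-bound gene passed the edgeR test. Of 12 tested beside the set, 0 rose and 0 fell with edgeR, against 4.22% and 2.8% of all tested genes. At an unadjusted edgeR p under 0.05, 1 was higher and 1 lower, against 12.4% and 10.2% of all tested genes. DESeq2 called 1 lower, against 4.04% of all genes, and limma-voom called 0. The median log2 fold change was 0.02. The methyltransferase-like droplet protein Mettl7a1 had a log2 fold change of -0.60 (± 0.20 SE, edgeR p after adjustment 0.0988) and its relative Mettl7b one of 0.48 (SE 0.19, adjusted p = 0.153). Without SCADD replicate 2 the adjusted p of Mettl7a1 was 0.00828, and without SCADD replicate 3 that of Mettl7b was 0.0309.

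Of 18 further lipolysis genes tested, 1 rose and 2 fell, against 4.22% and 2.8% of all tested genes. Their median log2 fold change was 0.03. Mgll, the monoacylglycerol lipase that ends triglyceride breakdown, rose by 0.79 (SE 0.20, edgeR adjusted p = 0.0369), and hepatic lipase Lipc, which acts on plasma lipoproteins, fell by 0.73 in log2 units (SE 0.17, adjusted p = 0.0263). Cav1, caveolin, fell by 1.40 (SE 0.34, adjusted p = 0.0335). Mgll lost its call without WT replicate 2 or 3 or SCADD replicate 1 (0.117 to 0.157) and with upper-quartile scaling (0.0513), Lipc without SCADD replicate 1 or any 1 of the WT livers (0.0550 to 0.134), and Cav1 without any library but WT replicate 3 (0.0508 to 0.0973) and with limma-voom (0.0670). Abhd5, the activator of the lipase, was at 18.9 TPM in WT and 18.8 TPM in SCADD (log2 fold change 0.03, edgeR adjusted p = 0.939). Hilpda, of the same list, had 9.59, 10.1 and 8.45 CPM in the WT livers against 14.8, 4.58 and 12.5 CPM in the SCADD livers. Its log2 fold change was 0.18 (SE 0.37, edgeR adjusted p = 0.826). Abhd5 and Hilpda were chosen after their values were seen.

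Of 17 transcription factors and coactivators of lipid metabolism, 1 rose and 2 fell, against 4.22% and 2.8% of all tested genes. Their median log2 fold change was 0.22. Pparg, the receptor that directs fat storage, had 4.52, 4.94 and 2.93 CPM in the WT livers against 10.4, 15.8 and 12.5 CPM in the SCADD livers (log2 fold change 1.64 ± 0.23 SE, edgeR p after adjustment 0.00227). In log2 units the coactivator Ppargc1a fell by 1.82 (SE 0.30, adjusted p = 0.00744) and Tfe3, a factor for lysosome genes, fell by 0.72 (SE 0.15, adjusted p = 0.0152). Ppargc1a lost its call without SCADD replicate 3 (0.0516), and Tfe3 without WT replicate 1 or 3 or SCADD replicate 1 (0.0552 to 0.0696). Without SCADD replicate 3, 3 factors rose, in a fit that called 1590 of all genes in place of 947.

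The genes whose course over the 6 livers lay nearest to that of Fitm1 were Clstn3, Sult5a1, Pla2g5, Gpc1 and Mogat1. Likeness was the root mean square difference between log2 CPM deviations from the WT mean, over 6 libraries and 10507 named genes with at least 1 CPM. It was 0.31 for Clstn3, which encodes calsyntenin 3, 0.46 for the sulfotransferase gene Sult5a1, 0.55 for the secreted phospholipase gene Pla2g5, 0.60 for the glypican gene Gpc1 and 0.64 for Mogat1, a monoacylglycerol acyltransferase. Clstn3 had 3.04, 1.09 and 2.44 CPM in the WT livers, lowest in replicate 2 as for Fitm1, against 32.5, 36.7 and 59.6 CPM in the SCADD livers. Its locus also encodes Clstn3b, a droplet protein of fat cells, and gene counts do not separate the products. The measure includes the group difference itself.

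Neighbouring genes were listed to show whether a change was shared along the chromosome, a choice made after the values of the set were seen. Of 18 nearest tested neighbours outside the set, 2 rose and 0 fell by edgeR, against 4.22% and 2.8% of all tested genes. Psme1, a proteasome activator gene 1169 bases after Fitm1, rose by 0.63 on the log2 scale (SE 0.13, edgeR adjusted p = 0.0145), from 27.7 to 42.9 CPM, and Dcaf11 on the other side, 5552 bases away, had -0.02 (SE 0.16, adjusted p = 0.967). The call of Psme1 was lost without SCADD replicate 1 or any 1 of the WT livers (0.0560 to 0.0794). Gm37691, a predicted gene 8054 bases beyond the start of G0s2, rose by 1.36 (SE 0.21, adjusted p = 0.00424), from 2.33 to 6.02 CPM, while Hsd11b1 on the other side had -0.39 (SE 0.17, adjusted p = 0.195). Beside the other rising genes, Oser1 (0.04, adjusted p = 0.934) and Hnf4aos (-0.73, adjusted p = 0.165) next to Fitm2 and Hdgfl2 (-0.03, adjusted p = 0.957) next to Plin4 did not pass the test. Nop9 shares exonic bases with Cideb on the opposite strand, with 164 to 320 reads per library, and Hdgfl2 with Plin4, with 87 to 196 reads. The counts used here keep the strands apart.

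Markers of other cells were summed to show what else the liver pieces held. In bulk tissue, fewer cells of a type and less RNA per cell cannot be told apart. Adipocyte markers matter here because Plin4, Cidec, G0s2 and Pparg are abundant in fat. Of 11 such markers 4 were tested and 0 were called by edgeR, DESeq2 or limma-voom. By edgeR 1 was higher and 0 lower at an unadjusted p under 0.05, against 12.4% and 10.2% of all tested genes. The 11 markers summed to 483 to 611 TPM in WT and 458 to 733 TPM in SCADD, and Ucp1 and Slc36a2 were at 0 TPM. Most of this sum was Pck1, a liver gene as well. Fabp4, a fatty acid carrier of fat cells and small vessels, was at 36.4, 19.7 and 16.6 TPM in the WT livers against 23.5, 14.5 and 70.9 in the SCADD livers, highest in SCADD replicate 3. Without Pck1 and Fabp4, left out after the values were seen, the other 9 summed to 11.8, 1.75 and 2.01 TPM in the WT livers against 3.24, 3.61 and 2.73 in the SCADD livers. The high value was WT replicate 1, with Adipoq at 4.42 TPM against 0.17 to 0.71 in the others. The sums of the other WT livers lay below those of all SCADD livers. Most of the sum outside WT replicate 1 was Lipe, the marker higher at an unadjusted p under 0.05. Lipe was at 2.95, 1.23 and 1.79 TPM in the WT livers against 2.23, 3.04 and 2.14 TPM in the SCADD livers, so its TPM values overlapped. Without WT replicate 1 the log2 fold changes were 4.40 for Fitm1, 0.998 for Fitm2, 1.86 for Plin4 and 1.25 for G0s2. Each kept its call (highest edgeR adjusted p 0.0439, for G0s2). The part of fat in the results for droplet genes was not tested.

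**Figure D4:**
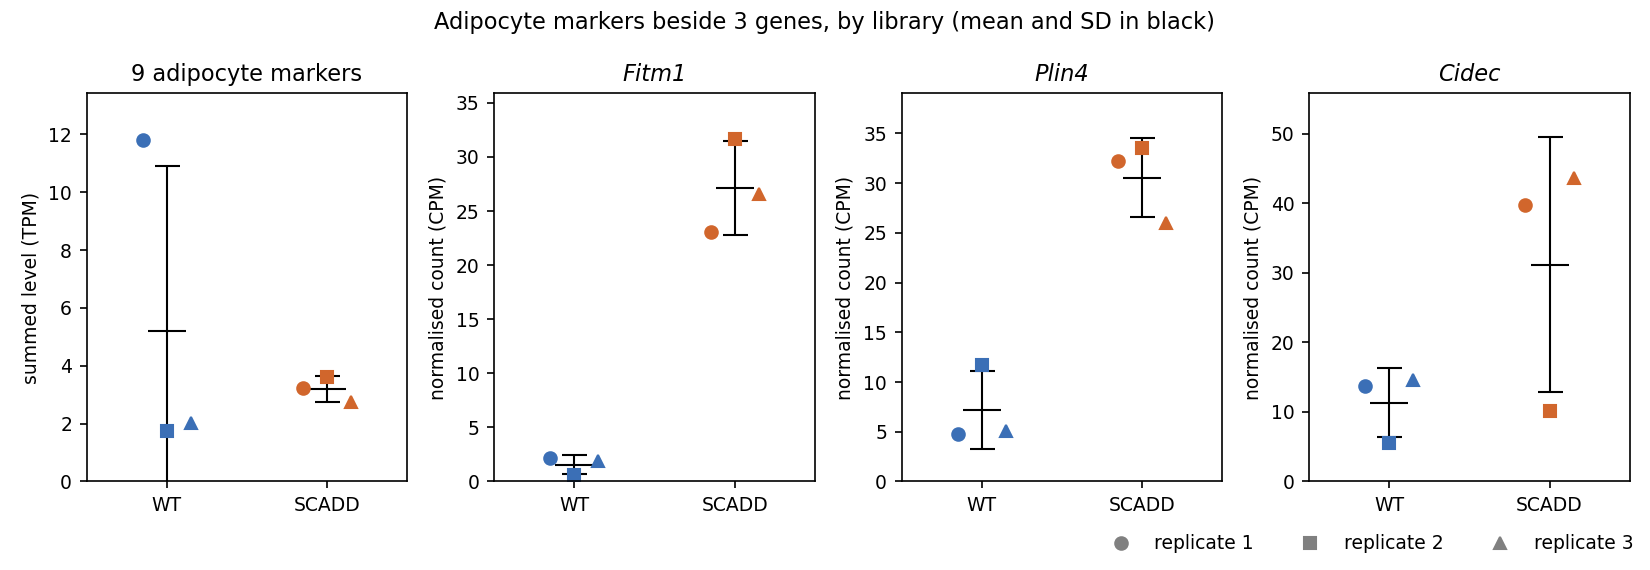
Summed level of 9 adipocyte markers (TPM, left) beside normalised counts (CPM) of Fitm1, Plin4 and Cidec in each WT (blue) and SCADD (orange) liver, all on linear axes from 0 with the mean and SD in black. WT replicate 1 (circle) has the high marker sum, 11.8 TPM, while its Fitm1, Plin4 and Cidec values (2.21, 4.74 and 13.7 CPM) lie below those of SCADD replicates 1 and 3. The other WT marker sums (1.75 and 2.01 TPM) lie below the SCADD sums (2.73 to 3.61 TPM).

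Muscle markers, listed because Fitm1 is a muscle gene, summed to 0.45 to 1.65 TPM in WT and 1.11 to 2.99 TPM in SCADD. Of the 8, Acta1, Myh1 and Mb were at 0 TPM in all libraries, and 1, Mylpf, was tested and not called. Most of the muscle sum was Mylpf, at 1.53, 0.67 and 0.40 TPM in WT against 1.10, 2.88 and 1.56 TPM in SCADD. Its log2 fold change was 0.72 (SE 0.34, edgeR adjusted p = 0.235). In CPM its SCADD livers were above all WT livers, as for 14.9% of all tested genes. Markers of sinusoidal endothelium summed to 141 to 180 TPM in WT and 82.1 to 109 TPM in SCADD. Those of bile duct cells summed to 36.3 to 44.4 and 26.4 to 29.2 TPM, and neither sum overlapped between the groups. Of the 5 endothelial markers Lyve1 alone passed the edgeR test, and it fell. At an unadjusted edgeR p under 0.05, 3 of the 5 were lower and 0 higher. Of the 3 bile duct markers tested, 0 were called, and 2 were lower and 0 higher at that unadjusted threshold. Over all tested genes edgeR called 4.22% higher and 2.8% lower, and at the unadjusted threshold 12.4% were higher and 10.2% lower. Most of the endothelial sum was Clec4g, at a mean of 98.6 TPM in WT and 59.2 in SCADD (edgeR adjusted p = 0.110). Most of the bile duct sum was Spp1, at means of 39.4 and 27.0 TPM (edgeR adjusted p = 0.0987). Stellate cell markers (188 to 304 TPM in WT, 162 to 245 in SCADD), Kupffer cell markers (101 to 151 and 86.9 to 114), lymphocyte markers (0.40 to 2.19 and 0.69 to 1.10), red cell markers (2045 to 2960 and 1398 to 4193) and hepatocyte markers (58503 to 82562 and 39915 to 80233) overlapped between the groups. Within these, 1 hepatocyte marker fell, the urea cycle gene Cps1 (-0.97 on the log2 scale, edgeR adjusted p = 0.00728), and 1 red cell marker rose, the heme synthesis gene Alas2 (1.13, adjusted p = 0.00357). The part of these shifts in the results for droplet genes was not tested.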

How the data were processed

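The authors aligned and quantified reads with STAR 2.7.6a and RSEM 1.3.3 on GRCm38 (per the submitters' processing notes). Their annotation release is not given in the sources used here. The deposited STAR tables hold whole-number counts per gene. The stranded column holding 96.8% to 97.3% of stranded reads was used, without its 4 summary rows. The deposited RSEM tables hold expected counts, TPM scaled within each library, and a weighted transcript length in bases (an other value, not an expression level, per the file headers). Symbols, coordinates and exon lengths came from GENCODE release M21 (55141 of 55487 IDs matched), promoter sequences from RefSeq.

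Genes passing filterByExpr (minimum count 10) were TMM-scaled and compared in edgeR 4.0.16 under R 4.3.3 (robust glmQLFit, glmQLFTest), all 6 libraries, group only, threshold 0.05. CPM uses TMM sizes. Each SE was obtained by dividing the log2 fold change by the root of its F statistic. limma 3.58.1 on log2(TPM + 1), for genes with a mean of at least 0.1 TPM, served as a check. Data were simulated for SCADD against WT over 13498 genes, with 100 changed 4-fold, 50 changed 2-fold and 50 changed 1.5-fold. On them edgeR found 96% of the 4-fold changes, 60% of the 2-fold and 10% of the 1.5-fold ones. Of its 142 calls 11 were false. Replicate pairs differed by far more than counting noise (chi-square per degree of freedom 32.8 to 121).

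The genes, lists and tests were chosen with earlier results of these data known. Named beside the 10 genes were up to 5 called genes per list (otherwise the 2 with the smallest p), the 5 patterns nearest to the gene with the smallest p, and genes sharing exonic bases with at least 10 reads. Alternatives were RLE and upper-quartile scaling, other filters, DESeq2 1.42.0, limma-voom, RSEM counts rounded to whole numbers, unstranded counts, a replicate block, no robust estimation, and leaving out each library. No promoter or sequence of Cidea is reported here.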

Additional observations from a re-analysis of the deposited data

How the results depend on the processing

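Under 16 alternatives to the count test, all 9 tested genes kept the sign of their log2 fold change. Fitm1 (3.73 to 4.40) and Fitm2 (0.83 to 0.998) were called in all 16, G0s2 (1.10 to 1.58) in 15 and Plin4 (1.86 to 2.63) in 14. The number of the 10 genes that rose was 3 to 4 when 1 library was left out and 4 otherwise, except 5 with the replicate block (4.95% of all genes rose there), and 0 fell in any setting. Replicate numbers are shared between the groups. Deviations of same-numbered livers correlated at 0.0606, 0.0372 and 0.107, and those of differently numbered livers at -0.127 to 0.0612. The numbers were not taken as pairs, and whether they mark a shared batch was not tested. With the replicate block Cidec passed (log2 fold change 1.35, SE 0.17, edgeR adjusted p = 0.000397), Spast lost its call (0.0597), 2 coat genes rose in place of 1, and 1148 genes were called in place of 947. Not every liver correlated best with its own number.

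For the lists, including the 10 genes, leaving out 1 library moved the formation genes that rose from 6 to between 5 and 9 and those that fell from 0 to between 0 and 1. Coat genes went from 1 higher to 0 to 2 and from 0 lower to 0 to 1, lipolysis genes from 2 higher to 0 to 4 and from 2 lower to 0 to 1, and transcription factors from 1 higher to 1 to 3 and from 2 lower to 1 to 2. Without a filter 1 formation gene and 1 coat gene fell and 2 factors rose. With RSEM counts 1 formation gene fell, with DESeq2 1 coat gene fell, with upper-quartile scaling 1 lipolysis gene rose, and with limma-voom 1 lipolysis gene fell. The highest counts that rose, 9 formation, 4 lipolysis and 3 factor genes, came without SCADD replicate 3. That fit called 1590 of 13805 genes in both directions together, the most of the fits with 1 library left out. The fewest, 395 of 13794, were called without WT replicate 2, and the main fit called 947 of 13498. The cause of these shifts was not tested.

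On the log2(TPM + 1) scale limma called Fitm1 (3.49, adjusted p = 0.00207), Plin4 (1.49, adjusted p = 0.0435) and G0s2 (1.20, adjusted p = 0.0356), but not Fitm2 (0.77, adjusted p = 0.147), and without a filter on low TPM the calls of Plin4 (0.126) and G0s2 (0.103) were lost. From STAR counts per kilobase of merged exons the ratio of G0s2 to Pnpla2 was 48.7 in WT and 98.3 in SCADD, and with 1 library left out the TPM ratio was 33.3 to 40.2 in WT and 58.1 to 87.98 in SCADD. With 3 animals a group, edgeR missed most of the simulated 1.5-fold changes. The simulation gave 142 calls against 947 in these data, so its recovery need not hold here. The calls not made for Plin2, Plin5, Cideb and Pnpla2 do not show that these genes were alike in both groups.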
